A study of Mus musculus with 18 samples.

Results

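The transcripts described here are 10 genes of the Notch pathway in blood vessel lining cells: the ligands Dll1, Dll4, Jag1 and Jag2, the receptors Notch1 and Notch4, and the targets Hes1, Hey1, Hey2 and Nrarp. They are defined by name, with no threshold on their values, and were chosen with earlier results of these data known. All 10 were found by Ensembl identifier among the 55401 genes of the endothelial table and by symbol among the 22612 lines of the EO771 table. In the 12 endothelial libraries all 10 reached the mean value of 10 needed for testing, Hey2 only just and Hey1 with few counts. In the 6 EO771 libraries 6 did, and Dll4, Hey1, Hey2 and Nrarp did not.

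RNA was sequenced from 18 libraries, 3 in each of 6 groups. Endothelial cells were sorted from female wild-type C57BL/6 mice as CD31-high, CD45- cells. Those without PNAd, the sugar epitope of high endothelium, are blood vessel endothelial cells (BECs), taken from the fat pad (BEC normal) or from the primary tumour that EO771 cells formed there (BEC tumour). Those with PNAd are high endothelial cells (HECs), which line the venules where lymphocytes enter lymph nodes, and they were taken from lymph nodes of mice without tumours (HEC normal) or from nodes labelled lymph node metastases (HEC tumour). The remaining libraries were EO771 cells, a single mouse breast cancer line in culture, given vehicle or 12-HETE, the lipid product of the enzyme ALOX12. Cell type and organ cannot be told apart in any comparison of HECs with BECs, because every HEC library came from lymph node and every BEC library came from fat pad or tumour. BEC tumour against BEC normal sets tumour tissue against fat pad. The paper's methods give fat pad, tumour and lymph node different digestion enzymes and times. Presence of tumour, tissue and digestion therefore cannot be told apart in BECs. The labels do not say that replicates came from separate animals or cultures, so p-values measure the spread between these libraries.

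Notch receptors are cut when a neighbouring cell presents a ligand, and the freed part of the receptor enters the nucleus and joins the DNA-binding protein RBPJ to switch on targets. In blood vessels, DLL4 acting on NOTCH1 restrains sprouting, JAG1 works against that restraint, and the pathway is needed for arterial identity. HES1, HEY1 and HEY2 are transcriptional repressors, and NRARP is a target whose protein feeds back on the receptor complex. NOTCH4 is a receptor found mainly in endothelium, and DLL1 and JAG2 are ligands better known from other tissues.

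Sums of marker genes over the libraries give the background to these values, in CPM, counts scaled to library size. The high endothelial list of 5 genes summed to 970.0 to 1327 CPM in HEC normal, 2219 to 3052 in HEC tumour and 1.01 to 3.87 in the BEC libraries. Nearly all of it in HECs was Glycam1, Chst4 and Fut7. Chst4 ran from 0.0596 to 297 CPM over the HEC normal libraries. Enpp2 averaged 2.14 and 3.08 CPM in HEC normal and HEC tumour, and 1.22 and 1.78 in BEC normal and BEC tumour. Madcam1 was at 0 in HEC normal and averaged 0.302 CPM in BEC normal. The list of 10 general endothelial genes summed to 3277 to 3471 CPM in BEC normal and 2368 to 2415 in BEC tumour. It summed to 2440 to 2585 in HEC normal and 2506 to 2542 in HEC tumour. From BEC normal to BEC tumour, Kdr (353 to 72.1 CPM on average), Esam (287 to 80.9) and Cldn5 (257 to 0.354) fell. Cdh5 was nearly level (911 to 905), and Tie1 (391 to 435) and Erg (89.1 to 128) rose. The list of 7 pericyte and smooth muscle genes summed to 704 to 712 CPM in normal BECs, 62.7 to 96.9 in tumour BECs, 23.5 to 25.8 in normal HECs and 10.6 to 13.1 in tumour HECs. Most of it in BEC normal was Acta2, smooth muscle actin, at 622 CPM, while Kcnj8 was at 0. The list also holds Notch3, a receptor described below, which made up 15.5 of 24.9 CPM in HEC normal and 7.88 of 11.4 CPM in HEC tumour, so in HECs the sum is largely Notch3 itself. The list of 5 fibroblast genes summed to 159 to 168 CPM in normal BECs, with Lum at 0, and 17 to 41.6 in tumour BECs, and in HECs to at most 18.2. The list of 5 myeloid genes summed to 1456 to 1948 CPM in BEC tumour, 107 to 128 in BEC normal, 483 to 509 in HEC normal and 355 to 374 in HEC tumour. Outside BEC tumour this was nearly all Cd68, at 109 of 116 CPM on average in BEC normal, 488 of 494 in HEC normal and 360 of 365 in HEC tumour. The leukocyte gene Ptprc averaged 9.85 CPM in BEC tumour against at most 0.435 in any library of the other endothelial groups. The list of 5 epithelial and tumour cell genes summed to 3.61 to 6.92 CPM in BEC normal, 14.3 to 84.3 in BEC tumour and 27.9 to 34.1 in HECs. In HECs this was nearly all Krt19, at 27.3 of 29.7 CPM on average in HEC normal and 31.2 of 32.3 in HEC tumour. The BEC tumour libraries were uneven. There Krt19 ran from 11 to 16 CPM, but Krt8 from 0.526 to 33.2, Krt18 from 1.45 to 25.3 and Epcam from 0.263 to 3.87. B cell markers summed to 2.68 to 3.73 CPM in BEC tumour and at most 0.925 in the other groups, and T cell markers to at most 0.841 in any library. Lymphatic endothelial markers summed to 341 to 362 CPM in BEC normal, 201 to 222 in BEC tumour, 282 to 338 in HEC normal and 350 to 360 in HEC tumour. Between the BEC groups, Lyve1 (203 to 50.5 CPM on average) and Pdpn (63.7 to 28.3) fell. Flt4 rose (83.1 to 132), and so did the barely counted Prox1 (0.109 to 0.387) and Reln (0.0172 to 0.634). Dcn of the fibroblast list also rose against its sum, from 2.63 to 7.16 CPM. Lum, Kcnj8 and Myh11 rose against theirs too, but only to 0.354, 0.358 and 0.576 CPM. BEC normal and BEC tumour thus stood apart in the marker sums of general endothelium, pericytes, fibroblasts, myeloid cells, leukocytes, epithelium, B cells and lymphatic endothelium. HEC normal and HEC tumour stood apart in those of high endothelium, lymphatic endothelium, pericytes, fibroblasts and myeloid cells. The part of these differences in the results below was not tested. In such pooled cells, fewer cells of a type and less RNA per cell cannot be told apart.

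RBPJ binds DNA at GTGGGAA and GTGTGAA, so the stretches before the start sites of the members were searched for these letters on both strands. RefSeq promoter windows, 250 bases before to 50 after a start on GRCm38.p6, were found for 8 of the 10 members, with 2 windows for Dll1; Hes1 and Hey1 had no entry. GTGGGAA was found in 6.38% and GTGTGAA in 3.24% of the 32851 windows of the table. Among the members, the Hey2 window held GTGGGAA at 2 places, starting 207 bases before the start site on the reverse strand and 4 bases before it on the forward strand, and the Notch4 window held GTGTGAA at 1 place, 68 bases before the start site on the reverse strand. The windows of Dll1, Dll4, Jag1, Jag2, Notch1 and Nrarp held neither. The stretches of Hey2 and Notch4 are shown because they hold the motif, and those of Dll4 and Nrarp because these genes had the patterns described below with neither motif in the window. Each runs 5′ to 3′ on the strand of its gene and ends at the base before the start site, except that of Hey2, which runs on to the end of its second motif; capitals mark the motifs.
Hey2, chr10:30842781-30843033, minus strand: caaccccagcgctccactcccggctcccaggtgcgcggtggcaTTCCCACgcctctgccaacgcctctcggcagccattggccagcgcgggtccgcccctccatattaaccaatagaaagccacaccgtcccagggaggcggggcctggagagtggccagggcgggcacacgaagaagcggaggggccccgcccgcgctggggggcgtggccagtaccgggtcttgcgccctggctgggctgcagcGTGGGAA
Notch4, chr17:34564045-34564294, plus strand: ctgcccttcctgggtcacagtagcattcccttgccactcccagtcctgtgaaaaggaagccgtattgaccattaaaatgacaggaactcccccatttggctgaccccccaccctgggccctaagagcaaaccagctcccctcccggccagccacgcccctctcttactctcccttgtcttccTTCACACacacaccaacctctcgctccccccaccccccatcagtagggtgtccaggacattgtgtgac
Dll4, chr2:119325534-119325783, plus strand: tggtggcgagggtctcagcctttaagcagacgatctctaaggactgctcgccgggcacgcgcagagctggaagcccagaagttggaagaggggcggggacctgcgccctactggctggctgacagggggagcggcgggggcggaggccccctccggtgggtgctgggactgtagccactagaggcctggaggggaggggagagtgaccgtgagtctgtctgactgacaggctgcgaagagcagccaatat
Nrarp, chr2:25180508-25180757, plus strand: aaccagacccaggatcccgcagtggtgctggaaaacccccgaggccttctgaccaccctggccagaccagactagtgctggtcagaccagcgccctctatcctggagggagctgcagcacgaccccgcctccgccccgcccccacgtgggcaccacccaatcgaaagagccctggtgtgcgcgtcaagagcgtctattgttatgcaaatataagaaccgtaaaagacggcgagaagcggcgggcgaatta
A match is a string of letters and was not tested as a binding site. The first Hey2 motif reads in reverse, TTCCCAC, and that of Notch4 reads TTCACAC.

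Levels are normalised counts on the scale of the deposited endothelial values, in which 1 sequenced fragment is worth about 3.74 units; group values are mean ± SD of 3 libraries, and a log2 fold change is given ± SE. A call needed an adjusted p below 0.05 (DESeq2 Wald test, adjusted over all 18511 genes) and a change of more than 2-fold. Compared with BEC normal, BEC tumour had 7 of the 10 members called lower, where 10.8% of all tested genes were called lower, and 1 called higher, where 12.4% were. The median log2 fold change of the 10 was -1.55, and that of all tested genes was 0.01. All 4 ligands, Notch4, Hes1 and Nrarp fell, Notch1 did not pass the test, and the 1 called higher, Hey2, was near the limit of detection.

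Dll4 (chr2:119325784-119335962, plus strand; positions of genes are their spans on GRCm38) had the largest fall among the members in BECs. Its level was 1049, 1223 and 1114 in the 3 BEC normal libraries and 31.5, 76.1 and 51.4 in BEC tumour, the latter resting on 9.1 to 24.1 fragments a library. The HECs lay between these groups and did not overlap either, at 213, 225 and 247 in HEC normal and 204, 197 and 182 in HEC tumour. The log2 fold change of BEC tumour against BEC normal was -4.41 ± 0.24, a 21.2-fold fall (adjusted p = 2.41e-73, DESeq2). In HEC tumour against HEC normal it was -0.23 ± 0.23, with a 95% interval of -0.68 to 0.22 (adjusted p = 0.473, DESeq2).

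Jag1 (chr2:137081456-137116644, minus strand), the most abundant ligand, was 10196, 8967 and 9372 in BEC normal and 4550, 4171 and 4340 in BEC tumour, a log2 fold change of -1.13 ± 0.10 (adjusted p = 1.81e-27, DESeq2). It moved the other way in HECs, from 2879, 2189 and 2677 in HEC normal to 5049, 4741 and 5078 in HEC tumour. Both pairs of groups were apart in every library. The change in HECs, 0.94 ± 0.10, had an adjusted p of 1.72e-18 (DESeq2) and a fold of 1.92, just under the 2-fold limit, so it was not called; scaled by library totals it was called, at 1.01, and likewise without HEC normal replicate 1, at 1.02.

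Dll1 (chr17:15367354-15376872, minus strand) was 2029, 2145 and 2104 in BEC normal and 824, 772 and 700 in BEC tumour, a log2 fold change of -1.45 ± 0.12 (adjusted p = 1.39e-30, DESeq2). In HECs it was 1868, 1507 and 1790 without and 2196, 1715 and 2021 with tumour. The HEC groups overlapped, and their log2 difference of 0.20 ± 0.12 had an adjusted p of 0.209 (DESeq2). Dll1 shares 20.5% of its exon bases with a gene on the opposite strand, A930024N18Rik, and it is not stated whether strand was used in counting.

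Jag2 (chr12:112907819-112929776, minus strand) stood high in BEC normal and low everywhere else. Its level was 1071, 1024 and 1183 in BEC normal, 165, 220 and 137 in BEC tumour, 187, 148 and 188 in HEC normal and 192, 75.0 and 128 in HEC tumour. The last 3 groups overlapped one another and none reached the lowest library of BEC normal. The log2 fold change of BEC tumour was -2.65 ± 0.30 (adjusted p = 1.16e-17, DESeq2), and in HECs with tumour it was -0.41 ± 0.31 (adjusted p = 0.329, DESeq2).

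**Figure D1:**
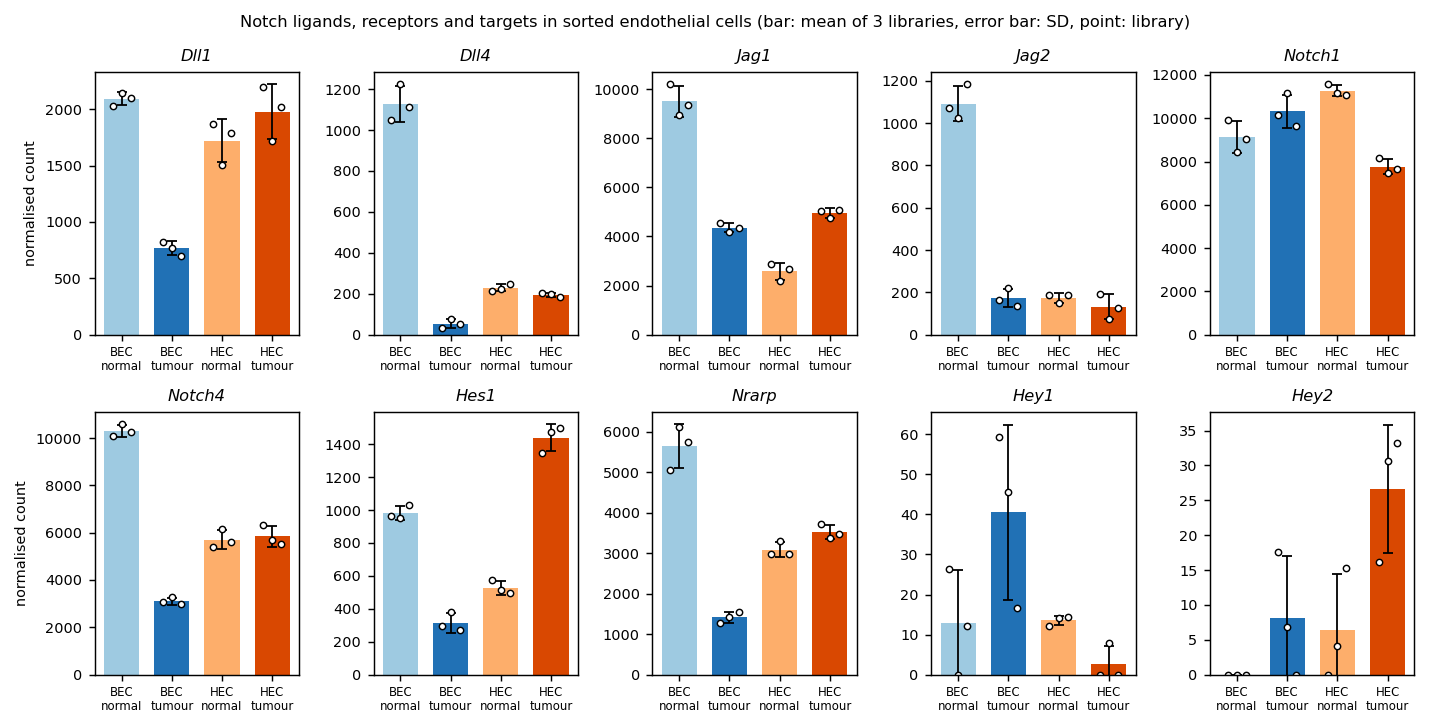
Normalised counts of the 10 members (y axis, linear from 0, own scale in each panel) in the 4 endothelial groups (x axis). Bars are means of 3 libraries, error bars are SD, drawn down to 0 at most, and points are libraries. Every BEC normal library lies above all others for Dll4, Jag1, Jag2, Notch4 and Nrarp, every BEC tumour library lies below all others for Dll1, Dll4, Notch4, Hes1 and Nrarp, and Hey1 and Hey2 reach at most 59.4.

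Per kilobase of exon, so that genes of different length could be set side by side, the 4 ligands summed to 2578 ± 73.4 in normal BECs, 967 ± 35.4 in tumour BECs, 935 ± 109 in normal HECs and 1389 ± 95.7 in tumour HECs. Jag1 was the largest share in every group: 63.3 ± 2.35% in normal BECs, 77.2 ± 1.81% in tumour BECs, 47.3 ± 1.14% in normal HECs and 61.3 ± 2.21% in tumour HECs. With the longest transcript in place of the union of exons, Dll1 and not Jag1 was the largest share in HEC normal, at 46.4% against 44.3%. Dll1 held 43.6 ± 0.281% in HEC normal and 33.7 ± 1.88% in HEC tumour, and 19.3 ± 1.08% and 18.7 ± 1.00% in BEC normal and BEC tumour. The share of Dll4 was 11.4 ± 1.20% in normal BECs, 1.44 ± 0.634% in tumour BECs, 6.40 ± 0.895% in normal HECs and 3.65 ± 0.335% in tumour HECs. Jag2 stayed between 1.34% and 6.09% on average. These shares are a description without a test.

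**Figure D2:**
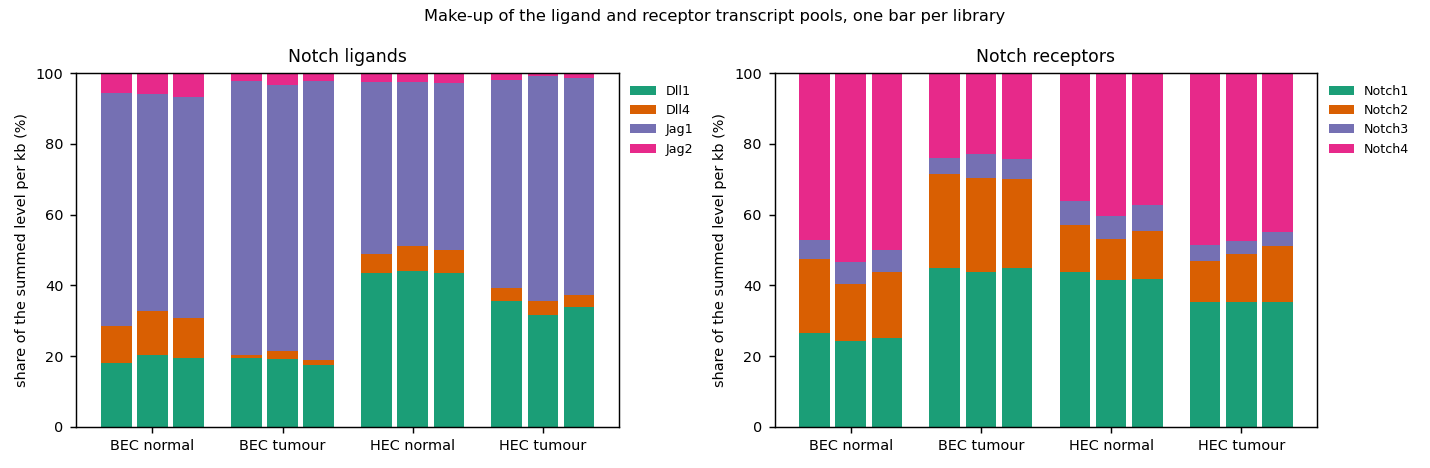
Shares of the summed level per kilobase of exon (y axis, percent) taken by each of 4 Notch ligands, left, and each of 4 Notch receptors, right; each bar is a library and the groups are on the x axis. Dll1 takes 43.5 to 44.0% of the ligand sum in HEC normal and 17.6 to 20.2% in the BEC libraries, and Notch4 takes 22.8 to 24.3% of the receptor sum in BEC tumour and 36.1 to 53.4% elsewhere.

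The 2 receptors differed from each other. Notch4 (chr17:34564268-34588503, plus strand) was 10074, 10579 and 10251 in BEC normal and 3055, 3273 and 2972 in BEC tumour, a log2 fold change of -1.73 ± 0.08 (adjusted p = 1.71e-107, DESeq2). Notch1 (chr2:26457903-26516663, minus strand), the receptor through which DLL4 restrains sprouting, was 9939, 8461 and 9034 in BEC normal and 10142, 11153 and 9653 in BEC tumour, where the groups overlapped and the log2 difference was 0.17 ± 0.08 (95% interval 0.02 to 0.33, adjusted p = 0.0518, DESeq2).

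In HECs, Notch4 was 5389, 6148 and 5593 without and 6342, 5678 and 5512 with tumour, a log2 difference of 0.03 ± 0.08 (adjusted p = 0.797, DESeq2) whose sign changed when HEC normal replicate 1 (-0.01) or HEC tumour replicate 1 (-0.03) was left out. Notch1 went from 11562, 11149 and 11086 to 8143, 7472 and 7674, groups that did not overlap; its log2 fold change of -0.54 ± 0.08 had an adjusted p of 1.98e-10 (DESeq2) and was under 2-fold, so it was not called. Small parts of the Notch1 exons, 7.5% and 2.9%, lie opposite 0610009E02Rik and Gm13568, which were at most 32.4 normalised counts on average in any group.

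Among the 4 receptors, Notch1 made up 25.2 ± 1.13% of the summed level per kilobase in BEC normal and 44.5 ± 0.496% in BEC tumour, and Notch4 made up 50.3 ± 3.07% and 23.6 ± 0.804%. In HECs Notch1 was 42.4 ± 1.33% without and 35.3 ± 0.07% with tumour, and Notch4 was 37.9 ± 2.19% and 46.9 ± 1.89%. Notch4 was thus the larger of the pair in BEC normal and HEC tumour, and Notch1 in BEC tumour and HEC normal. Notch2, which is not restricted to endothelium, was called lower in HECs than in BECs both without tumour, at -1.01 ± 0.14 (adjusted p = 8.48e-12, DESeq2), and with tumour, at -1.02 ± 0.14 (adjusted p = 8.47e-12, DESeq2). Both calls sat at the 2-fold limit, and whether they held with a library left out is not given here. Notch3, the receptor of pericytes and smooth muscle, was 1199 ± 58.9 in normal BECs, 747 ± 198 in tumour BECs, 1056 ± 64.4 in normal HECs and 511 ± 66.6 in tumour HECs; the fall in HECs, -1.05 ± 0.18, which is also most of the fall in the pericyte marker sum there, was called (adjusted p = 1.56e-07, DESeq2), but not with scaling by library totals (-0.97) nor without HEC tumour replicate 2 (-0.98) or HEC normal replicate 3, where it sat at the 2-fold limit.

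Of the targets, Nrarp (chr2:25180758-25183339, plus strand) was 5062, 6124 and 5751 in BEC normal and 1280, 1412 and 1547 in BEC tumour, a log2 fold change of -2.00 ± 0.10 (adjusted p = 1.52e-85, DESeq2). In HECs it was 2986, 3295 and 2974 without and 3716, 3374 and 3473 with tumour, apart in every library but different by 0.19 ± 0.10 (adjusted p = 0.131, DESeq2). Annotation places Gm38287 opposite 79.4% of the Nrarp exon bases, and that gene was listed at 0 in all 12 libraries. Nrarp was the most abundant of the 10 per kilobase in BEC normal, HEC normal and HEC tumour, at 2186 ± 209, 1195 ± 70.4 and 1364 ± 68.2. In BEC tumour, at 547 ± 51.8, it came after Jag1, at 747 ± 32.6, and Notch1, at 725 ± 53.8.

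Hes1 (chr16:30064384-30067796, plus strand) moved in opposite directions in the 2 cell types. It was 963, 952 and 1032 in BEC normal and 292, 382 and 269 in BEC tumour, a log2 fold change of -1.64 ± 0.14 (adjusted p = 4.98e-30, DESeq2). It was 575, 516 and 493 in HEC normal and 1348, 1476 and 1496 in HEC tumour, a log2 fold change of 1.45 ± 0.14 (adjusted p = 7.41e-24, DESeq2). Every HEC tumour library lay above every other endothelial library. Hes1 was the 1 member of 10 called higher in HECs with tumour, where 4.58% of all tested genes were called higher and 3.21% lower, and no member was called lower; the median log2 fold change of the 10 was 0.11, against 0.02 over all genes.

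Hey1 (chr3:8663359-8667256, minus strand) and Hey2 (chr10:30832359-30842801, minus strand), the targets tied to arteries, were near the limit of detection. Where no fragment was counted in a library, the true level may still be as high as 3 fragments, or 11.2 units. Hey1 was 26.5, 0 and 12.2 in BEC normal, 59.4, 45.7 and 16.6 in BEC tumour, 12.2, 14.2 and 14.3 in HEC normal and 0, 7.89 and 0 in HEC tumour. BEC tumour overlapped BEC normal and lay above both HEC groups. HEC tumour and BEC tumour rest on 2 and 37 fragments, a ratio of 0.0686 with a counting interval of 0.00801 to 0.266 (95%, exact binomial).

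Hey2 was 0 in all BEC normal libraries, 17.6, 6.77 and 0 in BEC tumour, 0, 4.07 and 15.3 in HEC normal and 16.2, 30.6 and 33.2 in HEC tumour. It was called higher than in BEC normal both in BEC tumour (adjusted p = 0.0182, DESeq2) and in HEC normal (adjusted p = 0.0238, DESeq2). No fold is given, because the means of these groups, 8.13 and 6.45, lie under 11.2 units. Neither call held with the quasi-likelihood test of edgeR, at adjusted p of 0.0502 and 0.0539, and that of HEC normal was also lost without BEC normal replicate 1 (adjusted p = 0.0534) or 3 (adjusted p = 0.0509) and with the replicate number as a block (adjusted p = 0.0598).

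**Figure D3:**
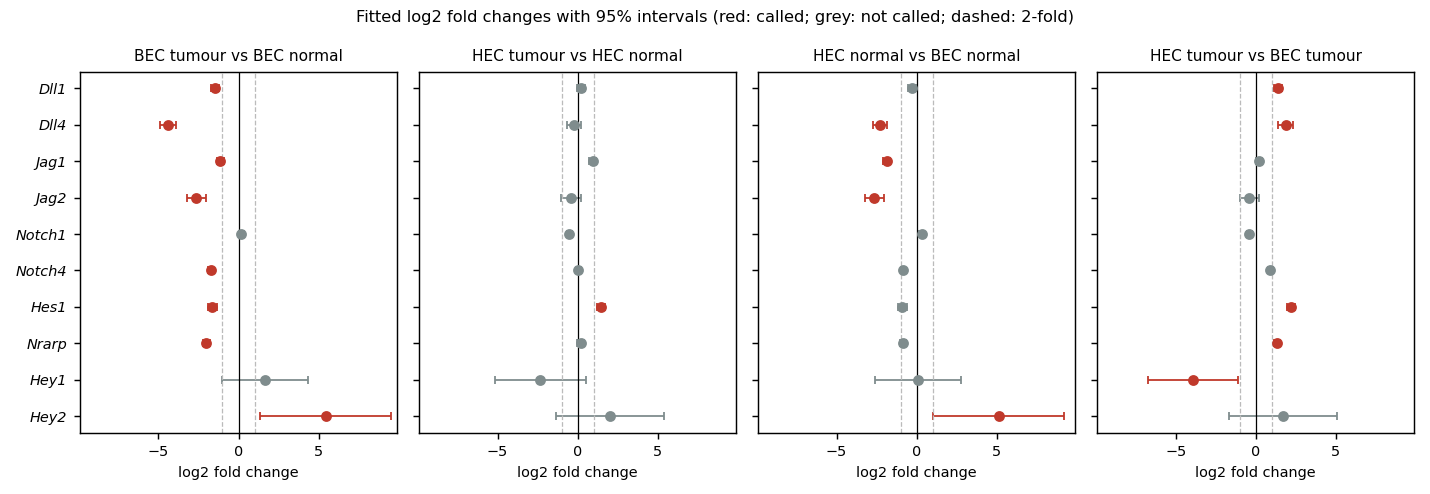
Fitted log2 fold changes (x axis) of the 10 members (y axis) in 4 comparisons, with 95% intervals; red marks called genes and dashed lines mark 2-fold. The 7 red points left of -1 in the first panel are the falls in BEC tumour, Hes1 is the red point of the second, and the wide intervals belong to Hey1 and Hey2.

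Without tumour, HECs had 3 members called lower than BECs, where 15.1% of all tested genes were, and 1 called higher, where 17.1% were. The 3 were ligands: Dll4 at -2.30 ± 0.22, Jag1 at -1.88 ± 0.10 and Jag2 at -2.65 ± 0.30, with adjusted p of 2.50e-24, 3.12e-74 and 9.62e-18 (DESeq2). The 1 higher was Hey2. Notch4, Hes1 and Nrarp were lower by less than 2-fold, at -0.85 ± 0.08, -0.90 ± 0.14 and -0.87 ± 0.10, and Dll1 and Notch1 differed by -0.28 ± 0.12 and 0.30 ± 0.08. The median of the 10 was -0.86, against 0.00 over all genes. This comparison shares its BEC normal libraries, with their high smooth muscle marker sum, with that of BEC tumour against BEC normal.

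HEC tumour had 4 members called higher than BEC tumour, where 11.2% of all tested genes were, and 1 called lower, where 10.7% were, and the median of the 10 was 1.12 against 0.01 over all genes. Hes1 was higher by 2.20 ± 0.14, Dll4 by 1.87 ± 0.25, Dll1 by 1.37 ± 0.12 and Nrarp by 1.32 ± 0.10 on the log2 scale, with adjusted p of 2.68e-53, 3.12e-13, 3.67e-27 and 3.20e-37 (DESeq2). Notch4 was higher by 0.91 ± 0.08 and Notch1 lower by 0.41 ± 0.08, both under 2-fold. Jag1 (0.19 ± 0.10, adjusted p = 0.11, DESeq2), Jag2 (-0.41 ± 0.31, adjusted p = 0.27, DESeq2) and Hey2 (adjusted p = 0.413, DESeq2) did not pass the test. Hey1 was the 1 called lower, on the few fragments given above (adjusted p = 0.0138, DESeq2), and the call was lost without BEC tumour replicate 1 (adjusted p = 0.081) or replicate 2 (adjusted p = 0.0603).

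The interaction, in which the tumour effect of BECs is subtracted from the tumour effect of HECs, was called higher for 7 of the 10 members, where 11.1% of all tested genes were, and lower for none, where 12.1% were. It was 4.17 ± 0.33 for Dll4, 3.09 ± 0.20 for Hes1, 2.24 ± 0.43 for Jag2, 2.19 ± 0.14 for Nrarp, 2.07 ± 0.14 for Jag1, 1.77 ± 0.11 for Notch4 and 1.65 ± 0.17 for Dll1. The weakest of these adjusted p-values was 1.10e-06, for Jag2 (DESeq2). Within HECs alone, Dll4, Jag2, Notch4, Dll1 and Nrarp did not pass the test. Notch1 had a value of -0.71 ± 0.11 (adjusted p = 1.59e-09, DESeq2), under 2-fold. The median of the 10 was 1.92 and that of all genes was 0.00. The tumour effects subtracted here are unlike: that of BECs sets tumour tissue against fat pad, and that of HECs sets lymph node against lymph node.

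Across the 12 endothelial libraries, Notch4 and Nrarp had nearly the same profile, with Pearson's r of 0.98 on log2 levels, and so had Dll4 with Notch4, at 0.98, and Dll4 with Nrarp, at 0.95. Notch1 correlated with Dll4 at -0.22 and with Hes1 at -0.75. Among the 13290 genes with a mean of at least 100, those most like Dll4 were Lhx6 (r = 0.993), Srsf9 (0.986) and Notch4 (0.982). Those most like Notch1 were Sin3a (0.958), Mmp14 (0.956) and Ifit1 (0.951). Those most like the sparsely counted Hey1 were Ncoa2 (0.946), 2700049A03Rik (0.909) and Shcbp1 (0.901). These r describe 12 libraries in 4 groups, which share the same scaling.

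The list of 61 other pathway genes, made up of further ligands and receptors, the enzymes that modify or cut them, the nuclear complex, inhibitors and other targets, had 57 genes above the filter in the endothelial libraries. Of these, BECs with tumour had 8 called lower and 4 higher than BECs without, HECs with tumour had 3 lower and 1 higher than HECs without, HECs had 10 lower and 7 higher than BECs without tumour, and HECs had 8 lower and 4 higher than BECs with tumour. In that order the shares called lower were 14%, 5.26%, 17.5% and 14%, against 10.8%, 3.21%, 15.1% and 10.7% of all tested genes, and the shares called higher were 7.02%, 1.75%, 12.3% and 7.02%, against 12.4%, 4.58%, 17.1% and 11.2%. Their medians were -0.16, -0.09, -0.22 and -0.24 on the log2 scale. The interaction was called higher for 5 (8.77%, against 11.1% of all tested genes) and lower for 7 (12.3%, against 12.1%), close to the background.

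Lfng, which adds sugar to the receptors and alters which ligand they respond to, fell in BECs and rose in HECs with tumour, as Hes1 did. It was 1334, 1453 and 1516 in BEC normal, 388, 448 and 391 in BEC tumour, 225, 248 and 301 in HEC normal and 903, 870.0 and 860.0 in HEC tumour, with no overlap between any of the groups. It fell in BECs by 1.81 ± 0.12 on the log2 scale (adjusted p = 8.71e-47, DESeq2) and rose in HECs by 1.76 ± 0.13 (adjusted p = 9.82e-40, DESeq2). Mfng, of the same family, passed the 2-fold limit in none of these comparisons, and was 2806 ± 380.0 in normal BECs, 2966 ± 99.3 in tumour BECs, 5412 ± 274 in normal HECs and 4148 ± 162 in tumour HECs. Poglut1, which adds glucose to Notch receptors, fell with tumour in BECs (-1.26 ± 0.06) and was lower in normal HECs than in normal BECs (-1.51 ± 0.06).

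In the nucleus, Rbpj, the DNA-binding partner of the receptors, was 8424 ± 262 in normal BECs, 16883 ± 876 in tumour BECs, 21527 ± 1295 in normal HECs and 15149 ± 1300.0 in tumour HECs. The rise in BEC tumour, 1.00 ± 0.08 (adjusted p = 8.42e-36, DESeq2), sat at the 2-fold limit and was not called without BEC normal replicate 3 (0.97), BEC tumour replicate 1 (0.98) or BEC tumour replicate 2 (0.99). In HEC normal it was 1.35 ± 0.08 above BEC normal (adjusted p = 8.20e-65, DESeq2). Hdac1, a histone deacetylase that acts with repressors, fell with tumour in BECs (-1.21 ± 0.07) and was lower in normal HECs than in normal BECs (-1.55 ± 0.07). Maml3, a coactivator of the receptor complex, was lower in HECs than in BECs without tumour (-2.74 ± 0.31) and with tumour (-2.59 ± 0.34), and fell with tumour in HECs (-1.61 ± 0.35). Its levels in HECs were low, at 79.1, 77.4 and 95.6 without and 13.9, 42.4 and 25.5 with tumour. The fall in HECs ran from -2.09 to -1.3 with 1 library left out, and was not called when tested against a 2-fold change.

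Neurl3 and Neurl1b, relatives of the fly protein that ubiquitinates Notch ligands, were the other genes called higher in BEC tumour with the largest Wald statistics. Neurl3 went from 1258 ± 31.5 to 8778 ± 575, a log2 fold change of 2.80 ± 0.06, and was 6845 ± 206 and 7889 ± 55.6 in HEC normal and HEC tumour. Neurl1b went from 461 ± 193 to 2287 ± 45.3, a log2 fold change of 2.31 ± 0.27 (adjusted p = 2.99e-16, DESeq2). Neurl1a fell in HECs with tumour by 2.44 ± 0.67 (adjusted p = 0.0014, DESeq2), with HEC tumour at 11.3 ± 12.2.

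Of the remaining genes, Numbl, related to the Notch inhibitor Numb, was higher in normal HECs than in normal BECs (1.17 ± 0.07). Egfl7, a secreted endothelial protein, was higher in HEC tumour than in BEC tumour (1.59 ± 0.06), and Psen2 and Aph1c, parts of the protease that cuts the receptors, were lower (-1.70 ± 0.14 and -2.51 ± 0.34). The ligand-like genes were low and differed between groups. Dll3 was at 0 in all BEC libraries and 17.2, 21.4 and 0 in HEC normal. In HEC tumour it was 38.5 ± 3.07, at least 3.43-fold above the per-library limit of 11.2 units. Dlk1 and Dlk2, whose proteins lack the domain by which ligands bind Notch, were at 0 in all HEC libraries, so they were at least 11.6-fold and 20.7-fold lower in HEC normal than in BEC normal. They averaged 130 and 232 in BEC normal, and 14 and 30.2 in BEC tumour. Heyl, a target in smooth muscle, was below the filter.

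**Figure D4:**
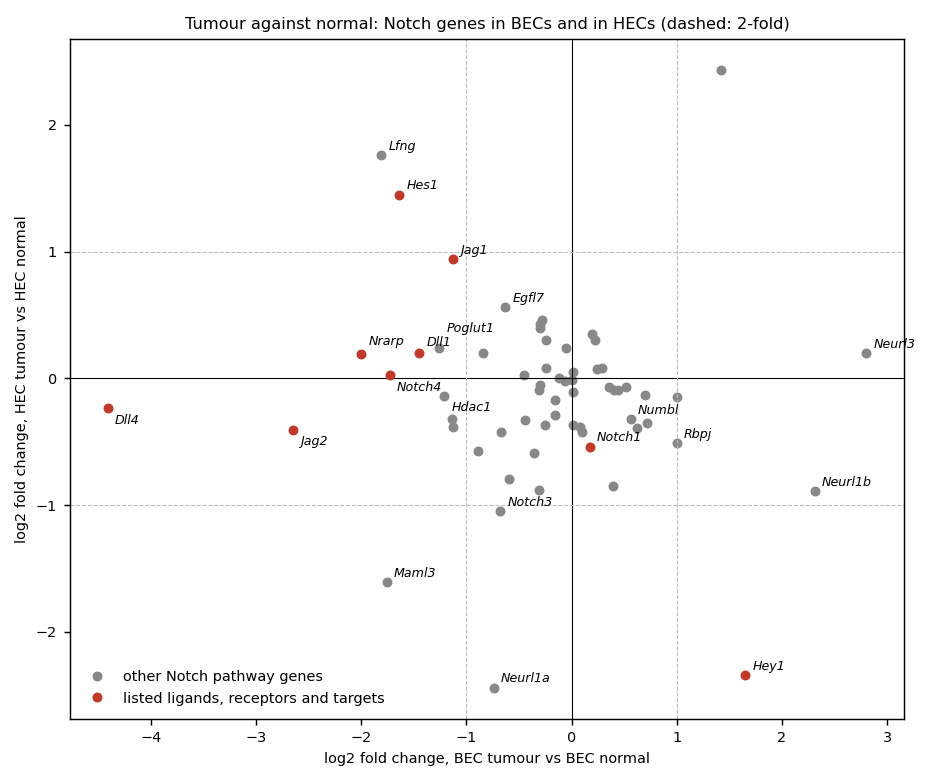
Log2 fold change with tumour in BECs (x axis) against that in HECs (y axis) for 63 tested Notch genes; the 2 axes share no library, dashed lines mark 2-fold, and 4 genes under 11.2 units in both groups of an axis (Dll3, Dlk1, Dlk2, Hey2) are left out. Of the listed genes, Dll4 and Jag2 lie far left near the horizontal axis, and Hes1 lies at -1.64 and 1.45 beside Lfng at -1.81 and 1.76.

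Of 13 genes used to tell arteries from veins, 12 were tested. Against BEC normal, 6 were called lower and 1 higher in BEC tumour, where 10.8% and 12.4% of all tested genes were, and likewise 6 and 1 in HEC normal, where 15.1% and 17.1% were. The medians of the 12 were -1.15 and -1.0, against 0.01 and 0.00 over all genes. The genes called lower in BEC tumour were 5 of 8 artery genes and 1 of 4 vein genes, and those in HEC normal were 6 of 8 and 0 of 4. Unc5b, a guidance receptor of arterial endothelium, went from 20390 ± 887 in BEC normal to 4352 ± 816 in BEC tumour (-2.23 ± 0.13) and was 915 ± 94.0 and 1013 ± 32.4 in HEC normal and HEC tumour. Sox17, a transcription factor of arteries, averaged 635 ± 185 in BEC normal and 3.91 ± 4.20 in BEC tumour, under the limit of 11.2 units. Cxcr4, a chemokine receptor of arterial and sprouting endothelium that leukocytes also carry, was higher in BEC tumour, at 315 ± 122 against 4.71 ± 8.15, where Ptprc was also higher. Efnb2, an arterial ligand, was lower in normal HECs than in normal BECs (-1.05 ± 0.06). The vein regulator Nr2f2 was higher in HEC tumour than in BEC tumour (1.20 ± 0.16). It fell from BEC normal to BEC tumour (-1.08 ± 0.16), and the libraries without tumour differed the other way, HECs being under BECs by less than 2-fold (-0.49 ± 0.16, adjusted p = 0.00398, DESeq2). The vein receptor Ephb4, named after its value was seen, stood lower in tumour BECs than in normal ones, just under the 2-fold limit and so not called (-0.97 ± 0.12, adjusted p = 1.28e-15, DESeq2). HEC tumour had 1 of the 12 called lower than HEC normal, where 3.21% of all tested genes were: Gja5, a connexin of arteries, which was 9.25 ± 4.51 in HEC normal and 0 in HEC tumour, both under the limit.

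In EO771 cells, 3 of the 6 members tested were called lower with 12-HETE than with vehicle, where 7.79% of the 11602 genes tested were called lower and 2.38% higher, and none was called higher. These were the ligand Dll1, the receptor Notch1 and the target Hes1. The median log2 fold change of the 6 was -0.71, against 0.00 over all genes. Values are counts, in libraries of 17.3 to 18.6 M. Between 12-HETE libraries the median squared difference of a gene was 1.8 to 2.04 times that of sampling noise. Between vehicle libraries it was 8.8 to 29.84 times, so the spread was unequal. The 5 epithelial marker genes summed to 3051 to 3977 CPM with vehicle and 2042 to 2092 CPM with 12-HETE, and the 5 fibroblast genes summed to 390 to 613 and 998 to 1037 CPM. The fibroblast sum was nearly all Dcn, at 510 of 514 CPM on average with vehicle and 1008 of 1018 with 12-HETE. The part of these sums in the results was not tested.

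Dll1 was 82.1, 65.9 and 78.8 with vehicle and 7.19, 14.8 and 18.7 with 12-HETE, a log2 fold change of -2.47 ± 0.38 (adjusted p = 8.62e-10, DESeq2). Notch1 was 500.0, 474 and 517 with vehicle and 232, 204 and 239 with 12-HETE, a log2 fold change of -1.14 ± 0.13 (adjusted p = 2.31e-16, DESeq2). Hes1 was 778, 828 and 810.0 with vehicle and 302, 361 and 345 with 12-HETE, a log2 fold change of -1.26 ± 0.12 (adjusted p = 2.87e-24, DESeq2). The groups did not overlap for any of the 3, nor for Jag1 below, which was not called. The share of all tested genes without overlap was not counted.

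The other 3 tested members were not called. Jag1, again the most counted ligand, was 2263, 2199 and 2552 with vehicle and 2148, 2086 and 2154 with 12-HETE, a log2 difference of -0.13 ± 0.10 (95% interval -0.32 to 0.05, adjusted p = 0.244, DESeq2), although the groups did not overlap. Jag2 was 75.2, 51.6 and 65.5 against 55.5, 42.4 and 60, a difference of -0.28 ± 0.29 (95% interval -0.85 to 0.28). Notch4 was 231, 195 and 185 against 209, 180.0 and 202, a difference of -0.05 ± 0.17 (95% interval -0.38 to 0.28). Dll4 had 2 counts in 1 vehicle library and 0 in the others, Hey1 had 0 to 3 counts in any library, and Hey2 and Nrarp were at 0 in all 6.

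**Figure D5:**
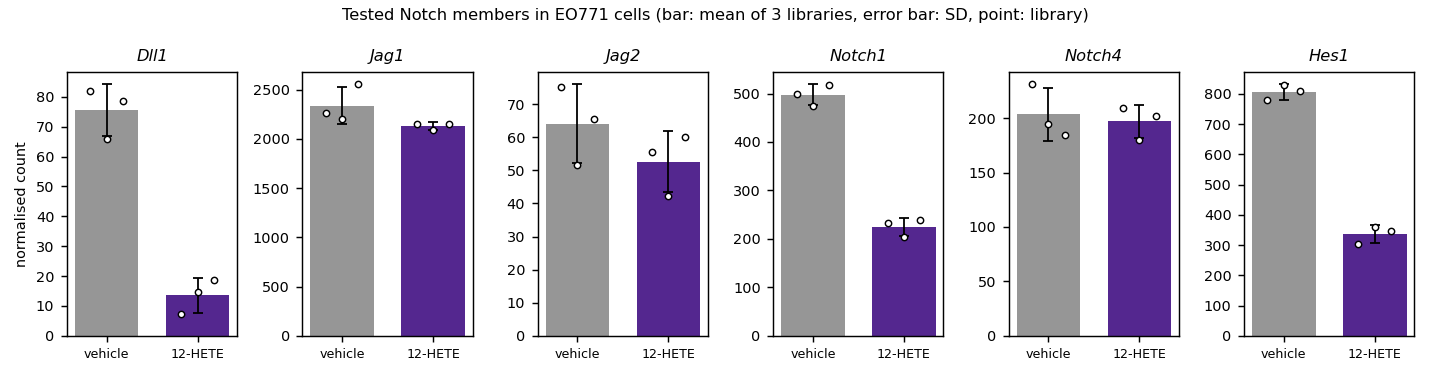
Normalised counts (y axis, linear from 0, own scale in each panel) of the 6 tested members in EO771 cells given vehicle or 12-HETE (x axis). Bars are means of 3 libraries, error bars are SD and points are libraries. The 12-HETE points of Dll1, Notch1, Hes1 and the uncalled Jag1 lie below all vehicle points, and those of Jag2 and Notch4 overlap with vehicle.

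Of the other pathway genes 50 were tested in EO771, and 4 were called lower (8%, against 7.79% of all genes tested) and none higher, with a median of 0.04. Myc, a transcription factor that is a Notch target among many other inputs, went from 11433, 9485 and 11043 to 1744, 1675 and 1716, a log2 fold change of -2.64 ± 0.10 (adjusted p = 1.05e-142, DESeq2). The other 3 were Neurl3 (-2.10 ± 0.22), Neurl1a (-1.06 ± 0.16) and Mib2 (-1.19 ± 0.20), which belong to the list of 5 ligand ubiquitin ligases. The other two of that list were not called, and both were higher with 12-HETE in every library: Mib1 at 0.51 ± 0.19 (adjusted p = 0.0154, DESeq2) and Neurl1b at 0.24 ± 0.19 (adjusted p = 0.303, DESeq2). Mib1, Mib2 and Neurl1b lay outside the rule for naming genes here and were named after their values were seen. Neurl1a was not called without vehicle replicate 2 (-0.97) or 12-HETE replicate 3 (-0.96). Rbpj differed by 0.08 ± 0.17 (adjusted p = 0.73, DESeq2), Notch2 by 0.31 ± 0.16 (adjusted p = 0.0955, DESeq2) and Lfng by -0.28 ± 0.18 (adjusted p = 0.181, DESeq2). Of the artery and vein genes 6 were tested, and Acvrl1, a receptor of the BMP family, was called lower at -1.18 ± 0.40 (adjusted p = 0.00996, DESeq2), a call lost with the replicate number as a block (adjusted p = 0.0691) and without vehicle replicate 3 (adjusted p = 0.0612) or 12-HETE replicate 1 (adjusted p = 0.0845) or 2 (adjusted p = 0.0874).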

How the data were processed

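Endothelial RNA was sequenced from 12 libraries and EO771 RNA from 6. The authors aligned the endothelial reads to GRCm38 (STAR) and counted them by gene (featureCounts). What they deposited was treated as estimated counts, since low values rise in steps of about 3.74 (3.67 to 3.77 by library), and was taken as whole numbers. For EO771 cells the authors deposited raw counts by gene symbol. It is not stated whether counting used strand. The library kits are named differently in the labels and the methods. Totals were 56.4 to 79.4 M (endothelial) and 17.3 to 18.6 M (EO771).

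Genes with a mean value of at least 10 were tested with DESeq2 1.42.0 in R 4.3.3 (two-sided Wald test, Benjamini-Hochberg adjustment over all genes tested, 18511 and 11602), in 1 fit of the 12 and 1 of the 6 libraries with group as the term. A gene was called at an adjusted p under 0.05 and a fold change over 2, as the study's methods set it. Alternatives were edgeR 4.0.16, other scalings, no filter, other call rules, fits of the groups compared alone, values divided by the step, the replicate number as a block, and leaving out each library. Simulated counts were used to test the fit. In EO771 the deviations of equally numbered libraries correlated at 0.109, 0.185 and 0.345. The labels do not say whether equal numbers are pairs, and these values do not settle it. All EO771 values are from the fit without a block, and the blocked value is added where it changed a call. Gene lengths and positions are from GENCODE vM21. Marker sums are CPM, computed from the counts. Counting limits and intervals cover counting error only, since PCR copies of a molecule could not be told apart.

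The members, the gene lists, the tests and the motifs were chosen with earlier results of these data known. Named besides the 10 members were, per comparison of 2 groups, up to 3 other pathway genes called in each direction and up to 2 artery or vein genes by the size of the Wald statistic, and Notch2, Notch3, Rbpj, Heyl, Lfng and Mfng.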

Additional observations from a re-analysis of the deposited data

Results flagged for a closer look

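By the interaction term of the DESeq2 fit, HECs and BECs differed in the tumour effect for 21 of the genes named above, 7 of them members. Values are log2 differences, HEC change less BEC change. For the members they were 4.17 for Dll4, 3.09 for Hes1, 2.24 for Jag2, 2.19 for Nrarp, 2.07 for Jag1, 1.77 for Notch4 and 1.65 for Dll1. For other pathway genes they were 3.57 for Lfng, 1.5 for Poglut1, 1.19 for Egfl7, 1.07 for Hdac1, -1.15 for Aph1c, -1.51 for Rbpj, -2.60 for Neurl3 and -3.20 for Neurl1b. For the artery and vein genes they were 6.40 for Sox17, 2.38 for Unc5b, 1.69 for Nr2f2, 1.17 for Acvrl1, 1.04 for Efnb2 and -6.10 for Cxcr4. Sox17 and Cxcr4 rest on groups at or near 0. Groups of 3 libraries are too small for a check of single outlying libraries.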

How the results depend on the processing

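Of the log2 fold changes of members under other tests, scalings, filters, units and fits, 352 kept their direction and their side of the call and 5 did not. The 5 were Hey2 in HEC normal and BEC tumour under edgeR, Hey2 in HEC normal under the block, Hey1 in the interaction under TMM, and Jag1 in HECs under library totals. Hey1 and Hey2 fell below the filter with values divided by the step, so they have no value there and are not counted. With the groups compared alone this held for Hey2 against BEC normal and for Hey1 within HECs. In the full fit Hey2 reached the filter mainly through HEC tumour. The count of members called moved by over 1.5 times with the adjusted p alone, to 9 for HEC normal against BEC normal and 3 for HEC tumour against HEC normal. That last count was 2 with library totals and 0 when tested against a 2-fold change, and EO771 then had 1. Among other pathway genes the adjusted p alone gave 34 and 39 calls between HECs and BECs without and with tumour, 24 and 35 with tumour in HECs and in BECs, 29 in the interaction and 23 in EO771, and the test against 2-fold gave 11, 7, 1, 7, 5 and 2 in that order. By construction these 2 rules admit smaller and only larger changes. Of the pathway genes 57 were tested in the endothelial libraries and 50 in EO771. Over all 18511 endothelial genes, in the same order, the adjusted p alone called 5815, 4800, 3128, 4908 and 4236 higher. It called 5902, 5256, 3426, 5033 and 4396 lower, and 2637 higher and 2813 lower of 11602 in EO771. The test against 2-fold called 1637, 685, 64, 1093 and 810 higher and 1717, 999, 104, 985 and 962 lower. In EO771 it called 20 higher and 391 lower. For members the adjusted p alone gained 10 calls, and the test against 2-fold lost 7: Hey2 in HEC normal and BEC tumour, Hey1 in HEC tumour against BEC tumour, Hes1 in HECs (adjusted p = 0.111), Jag1 in BEC tumour, and Notch1 and Hes1 in EO771.

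Leaving out 1 library gave 1 to 2 members called in HEC tumour against HEC normal: 2 without HEC normal replicate 1, where Jag1 was added, and 2 without HEC tumour replicate 2, where Hey1 was. It turned the direction of Hey1 in HEC normal against BEC normal (range -0.52 to 1.14), of Notch4 in HEC tumour against HEC normal (-0.03 to 0.09) and of Notch4 in EO771 (-0.11 to 0.05), none of them called. Hey1 gained a call in the interaction without BEC normal replicate 1 (-5.05) or HEC tumour replicate 2 (-7.68).

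With the longest transcript for length, the share of Dll1 was 20.9, 20.6, 46.4 and 36.4% in normal and tumour BECs and normal and tumour HECs, and that of Jag1 60.6, 74.8, 44.3 and 58.5%. That of Jag2 was 7.66, 3.29 and 3.29% in the first 3 groups.

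With the replicate number as a block, the members called were 3 and 5 between HECs and BECs without and with tumour, 1 and 8 with tumour in HECs and in BECs, 7 in the interaction and 3 in EO771. Of all 18511 endothelial genes, in that order, the block called 3180, 2077, 813, 2300 and 2012 higher. It called 2824, 1986, 566, 1942 and 2211 lower, and 275 higher and 808 lower of 11602 in EO771. In the endothelial libraries the same-number correlations ran from -0.027 to 0.207, and the labels name no pairs. There the block ended the calls of Hey2 (adjusted p = 0.0598) and Gja4 (adjusted p = 0.0636) in HEC normal against BEC normal and added Maml2 in HEC tumour against BEC tumour. In EO771 it ended that of Acvrl1 and no other call of the members or the pathway, artery and vein genes. The alternatives for genes other than the members were added after seeing the data. Depth limits Hey1, Hey2 and Dll4 in BEC tumour.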

Other observations

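Mib1, the enzyme that ubiquitinates Notch ligands in the sending cell, split within groups. It was 1114, 3096 and 3769 in HEC normal, 3687, 1133 and 1158 in HEC tumour, 2252, 3788 and 3532 in BEC tumour and 3421, 2251 and 3257 in BEC normal, in normalised counts. It was picked out after its values were seen, and no comparison was drawn from it.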
